A study of Mus musculus with 18 samples.

Results

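Glutathione transferases and the genes of the NRF2 antioxidant response were measured in ileal epithelial cells of mice fed chow or a high-fat diet (HFD), and of HFD-fed mice that lacked PGC1α in the intestinal epithelium. Members were chosen by name: each Gst gene of the alpha, kappa, mu, omega, pi, theta or zeta class, each Mgst gene, and Nfe2l2, Keap1, Nqo1, Gclc, Gclm, Gsr, Gss, Hmox1, Txnrd1, Srxn1, Slc7a11, Ephx1, Akr1b8 and Osgin1. The arrays carried 37 of these genes, 23 of them Gst or Mgst. A gene was kept when some group of 6 arrays had 5 or more on which a probe of it stood well above background, and 35 members were kept, among 21542 genes tested. Gstt4 was well above background on 0 of 18 arrays, and the best of the 4 Slc7a11 probes on 1 chow array, so neither was tested. The members nearest the limit were Gsto2, with 5, 6 and 6 arrays in the 3 groups, and Hmox1, with 6, 5 and 5. Gstt1 had 6, 5 and 6 because 1 iPGC1afl/fl HFD spot was left out as an outlier. It was not dim, at 10.76 to 11.33 (log2 signal) on the other arrays of that group. All other members had 6 in each group.

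Every sample was one mouse on one 1-colour Agilent array, with 6 mice in each of 3 groups. The iPGC1afl/fl CHOW and iPGC1afl/fl HFD mice carried floxed Ppargc1a alleles, the gene of the coactivator PGC1α. The iPGC1a-/- HFD mice carried the same floxed alleles with a Vil1-Cre transgene, whose Villin promoter directs the deletion of exons 3 to 5 to intestinal epithelium, and a group of iPGC1a-/- mice on chow was not analysed here, so the interaction of diet and genotype could not be tested. By the study's methods all mice were on a C57BL6/J background, were 8 weeks old when the diets began, and ate them for 8 weeks. The HFD gave 42% of its energy as fat and held 0.2% cholesterol. Cells were released from the ileum by chelation and not sorted. Whether the 2 Ppargc1a probes lie within the deleted exons was not established, so they gave no check of the genotype: the brighter one read 10.104 to 11.25 in iPGC1afl/fl CHOW, 11.26 to 11.45 in iPGC1afl/fl HFD and 11.36 to 12.01 in iPGC1a-/- HFD mice. Directions between genotypes therefore rest on the labels.

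Between 56.3% and 62.3% of spots were well above background on an array, no spot was saturated, and arrays of one group correlated at 0.987 to 0.997. The 3 slides each held 2 arrays of every group. All 6 enterocyte markers passed the filter, and in the tissue as collected the markers of T cells, B cells and goblet cells were also measured and were lower on HFD (values below). All values are on the log2 scale of normalized signal. Levels of different probes are not comparable with each other, so one gene is compared across groups, except in the summed marker lists given near the end. A gene was called when limma gave a Benjamini-Hochberg adjusted p of at most 0.05 over all 32726 probes and the fold change was above 1.5, which is 0.585 on the log2 scale. The brightest probe stood for its gene. Because the RNA came from a mixed cell suspension, fewer cells of a type and less RNA per cell cannot be told apart.

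Glutathione, a tripeptide of glutamate, cysteine and glycine, is the main small thiol of animal cells. The glutathione transferases (GSTs) join it to electrophiles, among them drugs, food toxins and products of lipid peroxidation, and the conjugates are exported and broken down. The gut epithelium meets many of these compounds first and is rich in GSTs. Much of the system is under the transcription factor NRF2, encoded by Nfe2l2. KEAP1 holds NRF2 for degradation until electrophiles modify its cysteines, and NRF2 then pairs with a small MAF protein and binds antioxidant response elements near its target genes. Because this control acts on the protein, the level of Nfe2l2 mRNA need not follow NRF2 activity.

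The core of that element, TGACNNNGC, was searched on both strands of the RefSeq promoter windows (GRCm38.p6, 250 bases before to 50 bases after each annotated start). At least one window was found for 32 members and none for Gclc, Gsr, Gsta4, Gstt2 and Hmox1. Of those 32 genes 8 (25.0%) held the core: Gclm, Gsta3, Gstm5, Gstm7, Mgst1, Nfe2l2, Srxn1 and Txnrd1. Over all RefSeq genes 3781 of 27025 (13.99%) held it. Counted by window, 8 of 43 member windows (18.6%) and 4071 of 32851 windows of all genes (12.39%) held it. Repeated sequences of a gene were dropped for the members only. A match is a description of letters in a window and not evidence of binding, and elements farther away are not seen. The stretches of 5 genes are shown because their values differ in the results below: Gclm rose on HFD, Gsta3 and Gstm7 passed only with both differences combined, Txnrd1 had a small difference, and Nfe2l2 encodes NRF2 itself. They are written 5' to 3' on the strand of the gene, with the core in capitals. Txnrd1 had 3 windows and Gstm7 had 2, and in each gene 1 window held the core. Distances are to the start of the window shown. A core that reads GCNNNGTCA is the same element on the opposite strand.
Gclm, chr3:122245407-122245447, plus strand, 125 bases before the start: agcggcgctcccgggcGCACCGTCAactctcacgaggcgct
Gsta3, chr1:21240448-21240488, plus strand, 112 bases before the start: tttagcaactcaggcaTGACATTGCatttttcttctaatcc
Gstm7, chr3:107931719-107931759, minus strand, 120 bases before the start: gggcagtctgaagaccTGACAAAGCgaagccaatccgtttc
Txnrd1, chr10:82859098-82859138, plus strand, 83 bases before the start: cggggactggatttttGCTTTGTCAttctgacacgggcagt
Nfe2l2, chr2:75704879-75704913, minus strand, 231 bases before the start: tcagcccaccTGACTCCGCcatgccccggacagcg

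The first comparison asked how HFD altered these genes in iPGC1afl/fl mice. Both subunits of the enzyme that starts glutathione synthesis rose (Gclc and Gclm), as did the mitochondrial and peroxisomal transferase Gstk1 and the mu-class Gstm6, while the aldo-keto reductase Akr1b8 fell. These 5 were the members called, 4 higher and 1 lower of 35, where 3.22% of all 21542 genes were called higher, 5.20% lower and 8.43% in either direction. With the adjusted p alone 13 members passed, 11 higher and 2 lower, against 10.4% and 14.2% of all genes, and an unadjusted p of at most 0.05 was reached by 17 members, 15 of them higher, and by 37.4% of all genes. The median difference of the 35 members was 0.20 (log2), that of all genes was 0.00311, and 25 members had a positive difference. In 8 members the 2 groups did not overlap with HFD above, and in 1 with HFD below, where all genes gave 5.11% and 5.30%.

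**Figure D1:**
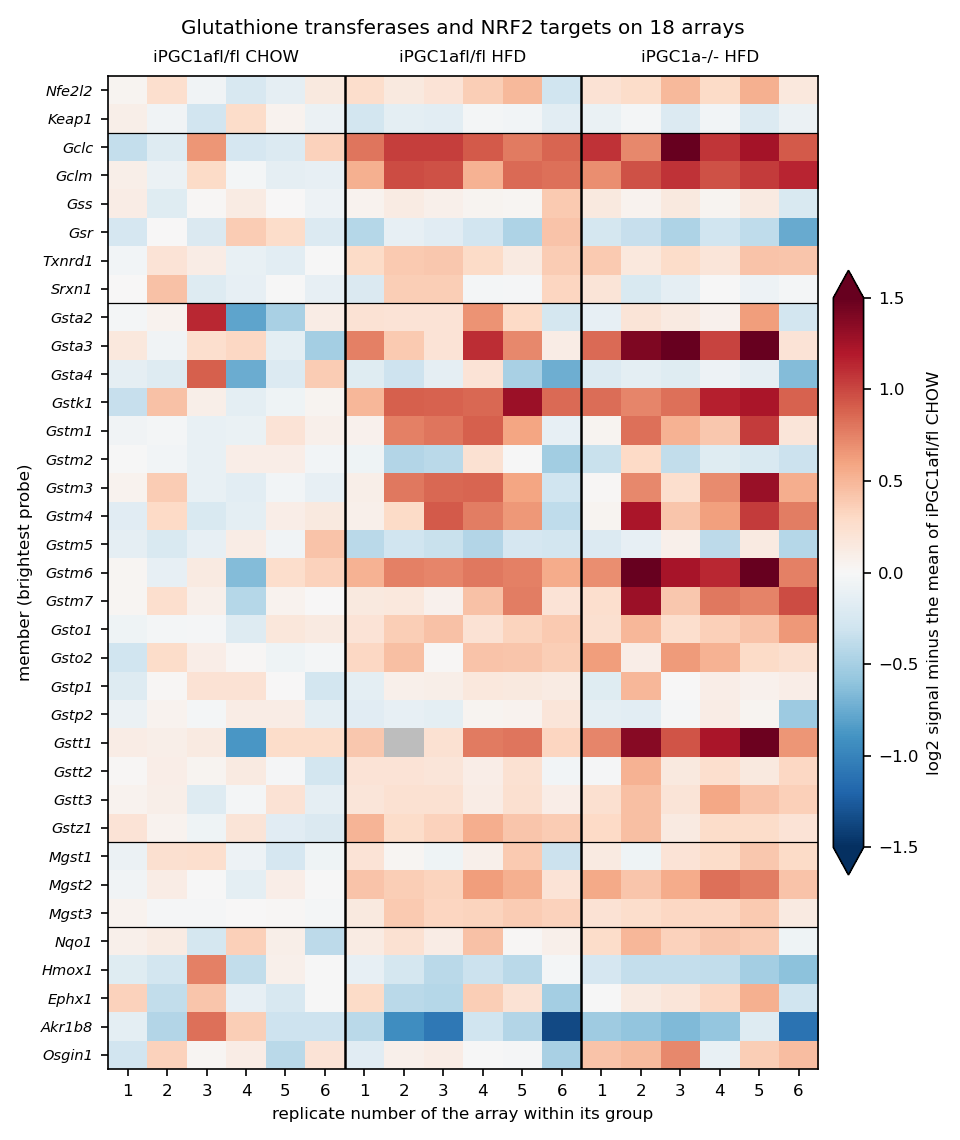
Heat map of the 35 members (rows) on the 18 arrays (columns, by group and replicate), coloured by the log2 signal of each array minus the mean of the iPGC1afl/fl CHOW arrays for that gene, with a spot left out in grey. The rows of Gclc, Gclm and Gstk1 are higher on all 12 HFD arrays than the chow mean, Akr1b8 is lower on all of them, and the iPGC1a-/- HFD columns show the highest values of Gsta3, Gstt1 and Gstm6.

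The regulators themselves did not pass. Nfe2l2 (probe at chr2:75513771-75513830, mm9) had its lowest, median and highest value at 11.60, 11.82 and 12.08 on chow and at 11.53, 12.07 and 12.32 on HFD. The groups overlapped widely, and the difference was 0.20 (SE 0.12, 95% interval -0.05 to 0.44, limma adjusted p = 0.236, n = 6 and 6). A second Nfe2l2 probe gave -0.18 with an adjusted p of 0.671. Keap1, its inhibitor, read 11.05, 11.34 and 11.61 on chow and 11.06, 11.18 and 11.30 on HFD, a difference of -0.14 (adjusted p = 0.247). Every HFD array of Keap1 lay within the chow range, while the HFD arrays of Nfe2l2 reached past both ends of it.

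Glutathione synthesis held the clearest diet difference among the members. Gclc, the catalytic subunit of glutamate-cysteine ligase (probe at chr9:77641296-77641355, mm9), read 10.08, 10.24 and 11.10 on chow and 11.21, 11.33 and 11.48 on HFD. No chow array reached the lowest HFD array, and the HFD arrays were close together while the chow arrays were spread (SD 0.11 against 0.41). The difference was 0.91 (SE 0.15, limma adjusted p = 0.000228), or 1.87-fold, and on each of the 3 slides HFD was higher, by 0.75 to 1.12. Gclm, the modifier subunit that makes the ligase more efficient (chr3:121967737-121967796, mm9), read 11.15, 11.23 and 11.57 on chow and 11.81, 12.12 and 12.26 on HFD. These ranges did not overlap either. The difference was 0.78 (SE 0.10, adjusted p = 1.59e-05), 1.71-fold, and 0.73 to 0.87 within slides. The next step behaved otherwise: Gss, glutathione synthetase, differed by 0.12 (95% interval -0.06 to 0.29, adjusted p = 0.335).

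Enzymes that keep thiols reduced showed smaller values. Txnrd1, cytosolic thioredoxin reductase, read 12.63, 12.76 and 12.99 on chow and 12.93, 13.12 and 13.19 on HFD. Its difference of 0.32 (SE 0.08, limma adjusted p = 0.00633) passed the adjusted p and not the fold threshold, and its second probe gave 0.33. Gsr, glutathione reductase, had a difference of -0.17 (adjusted p = 0.414), and Srxn1, which repairs overoxidised peroxiredoxins, one of 0.13 (adjusted p = 0.445). In neither gene did the 2 diets separate.

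Of the other targets, Nqo1, the quinone reductase often used as a readout of NRF2, had the values 8.27, 8.75 and 9.02 on chow and 8.68, 8.78 and 9.11 on HFD. The medians lay almost together, with a difference of 0.17 (95% interval -0.08 to 0.42, limma adjusted p = 0.331). Hmox1, which cleaves haem, read 5.29, 5.56 and 6.41 on chow and 5.25, 5.36 and 5.63 on HFD, near the dim end of the array (difference -0.26, adjusted p = 0.193). Ephx1, microsomal epoxide hydrolase, differed by -0.08, and so did Osgin1, a growth inhibitor induced by oxidative stress. Akr1b8, which reduces aldehydes, read 11.36, 11.57 and 12.62 on chow and 10.44, 11.11 and 11.49 on HFD. It fell by 0.75 on the log2 scale (SE 0.21, adjusted p = 0.0145) although the groups overlapped, and it was lower on HFD on every slide. Chow replicate 3 held the highest chow value of Akr1b8 and Hmox1, and also of Gclc, Gclm, Gsta2 and Gsta4. In all, 2 of the 13 kept genes named for the NRF2 response rose and 1 fell, against 3.22% and 5.20% of all genes.

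**Figure D2:**
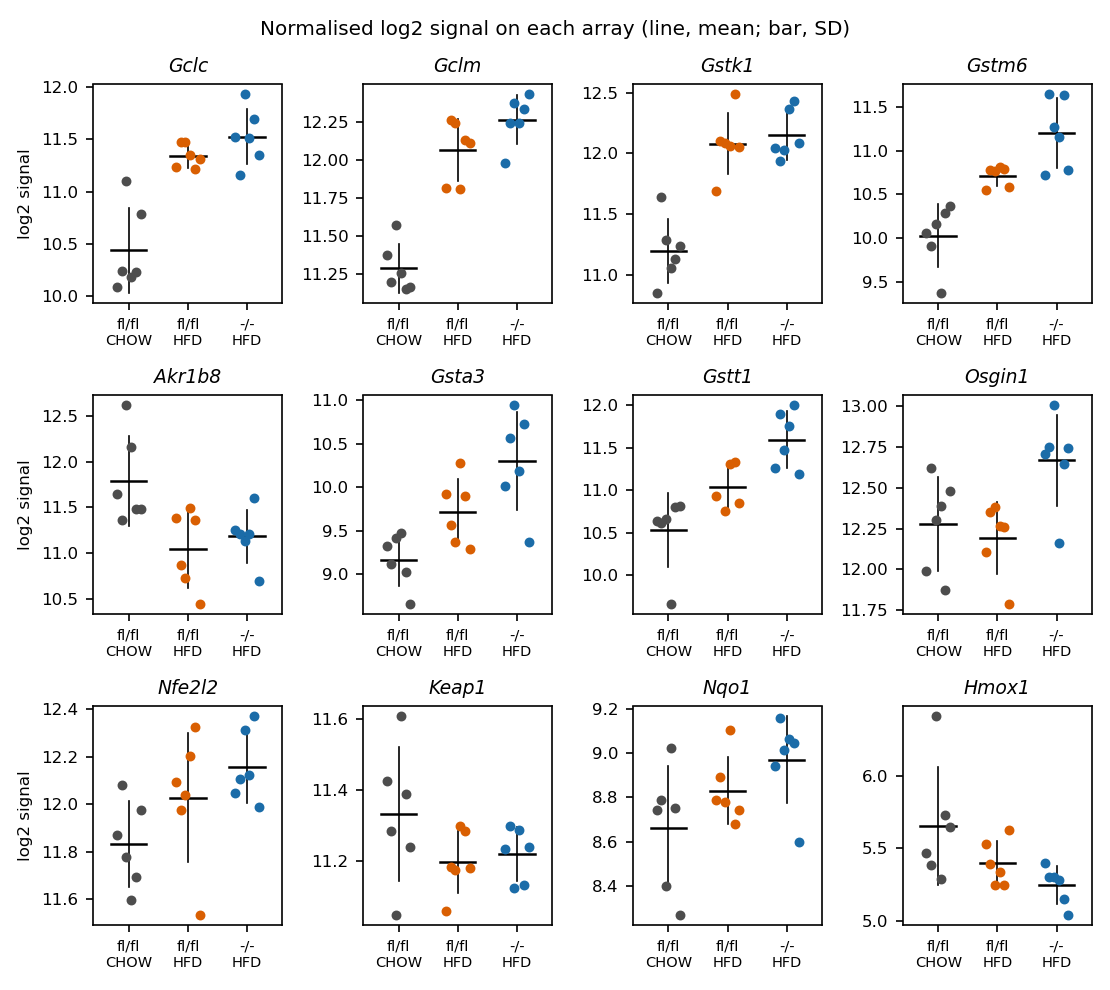
Log2 signal on every array (points, y axis) by group (x axis) for 12 members, with horizontal lines at the group means and vertical bars of 1 SD to each side, n = 6 mice a group (5 for Gstt1 in iPGC1afl/fl HFD). The HFD groups lie wholly above chow for Gclc, Gclm, Gstk1 and Gstm6, and overlap chow for Nfe2l2 and Nqo1.

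Among the transferases, 2 of 22 kept Gst and Mgst genes rose and 0 fell, against 3.22% and 5.20% of all genes. Gstk1, the kappa-class enzyme of mitochondria and peroxisomes (chr6:42200381-42200440, mm9), read 10.86, 11.19 and 11.64 on chow and 11.70, 12.08 and 12.48 on HFD. The lowest HFD array stood above the highest chow array, and the difference was 0.88 (SE 0.13, limma adjusted p = 5.73e-05), 1.84-fold, and 0.71 to 1.22 within slides.

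The 7 mu-class genes did not move as one. Their brightest probes lie at chr3:107701511-107846847 (mm9), a stretch of 145.3 kb, except that of Gstm1, which the files place at chr5:117082490-117082549 although its other probe lies at chr3:107815595-107815654. Gstm6 read 9.38, 10.11 and 10.37 on chow and 10.55, 10.77 and 10.81 on HFD, without overlap. Its difference was 0.69 (SE 0.17, limma adjusted p = 0.00513), 1.61-fold. Without chow replicate 4 the difference was 0.56 and no longer above the fold threshold, a second, dimmer probe of Gstm6 gave 0.39 (adjusted p = 0.123), and the mean of both probes 0.54.

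Gstm1 read 11.07, 11.14 and 11.39 on chow and 11.06, 11.86 and 12.07 on HFD, a difference of 0.50 that passed the adjusted p (limma, 0.045) and not the fold threshold. Its dimmer probe, the one placed on chromosome 3, gave 0.61 (limma adjusted p = 0.069). Gstm3 read 13.42, 13.50 and 13.96 on chow and 13.28, 14.27 and 14.46 on HFD (0.49, adjusted p = 0.092), and Gstm4 7.16, 7.36 and 7.69 against 7.003, 7.85 and 8.30 (0.39, adjusted p = 0.183). In all 3 the HFD arrays were wide, and their lower end reached below the chow arrays. In iPGC1afl/fl HFD the same mice were low: replicate 1 was among the lowest 2 of its group for 6 of the 7 mu genes and replicate 6 for 5. This was not confined to the mu class. Over all 35 members replicate 6 was the lowest of its group for 15 and the highest for 4. Replicate 1 was the lowest for 8 and the highest for 0. Without iPGC1afl/fl HFD replicate 6, Gstm3 (0.65) and Gstm1 (0.63) were called as well.

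Gstm5 lay the other way, at 10.45, 10.59 and 11.10 on chow and 10.23, 10.36 and 10.42 on HFD. Every HFD array was below every chow array, by a small difference of -0.33 (limma adjusted p = 0.0342) that did not pass the fold threshold. Gstm2 differed by -0.20 (adjusted p = 0.267) and Gstm7 by 0.30 (adjusted p = 0.178). The most alike probes of 2 members, those of Gstm1 and Gstm6, share 31 of 60 bases at their best ungapped alignment, and cross-hybridisation between mu genes was not tested.

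Smaller differences ran through the other classes. Mgst2, a membrane transferase of the MAPEG family, read 14.48, 14.62 and 14.73 on chow and 14.82, 15.02 and 15.25 on HFD (0.42, limma adjusted p = 0.00172). Mgst3 read 13.54, 13.56 and 13.62 against 13.71, 13.91 and 13.96 (0.32, adjusted p = 0.00104). In both genes the groups separated fully with a difference below the fold threshold, whereas Mgst1, abundant in the endoplasmic reticulum and outer mitochondrial membrane, differed by 0.05. Gstz1, which also serves tyrosine breakdown, was higher by 0.41 (adjusted p = 0.00128) and Gsto1, an omega enzyme with glutaredoxin-like activity, by 0.33 (adjusted p = 0.00759), again without overlap. Gsto2 was higher by 0.33 with overlap (adjusted p = 0.034).

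The pi, theta and alpha classes held no gene past the adjusted p. Gstp1 and Gstp2, neighbours on chromosome 19, differed by 0.07 and -0.03, with 95% intervals of -0.15 to 0.29 and -0.23 to 0.18. Gsta3, which conjugates electrophiles, was 0.55 higher (limma adjusted p = 0.0791), Gsta2 0.22 higher and Gsta4, which conjugates 4-hydroxynonenal, 0.27 lower (difference -0.27, adjusted p = 0.355). Of the theta genes, Gstt1 differed by 0.51 (adjusted p = 0.0675), Gstt3 by 0.18 and Gstt2 by 0.15.

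**Figure D3:**
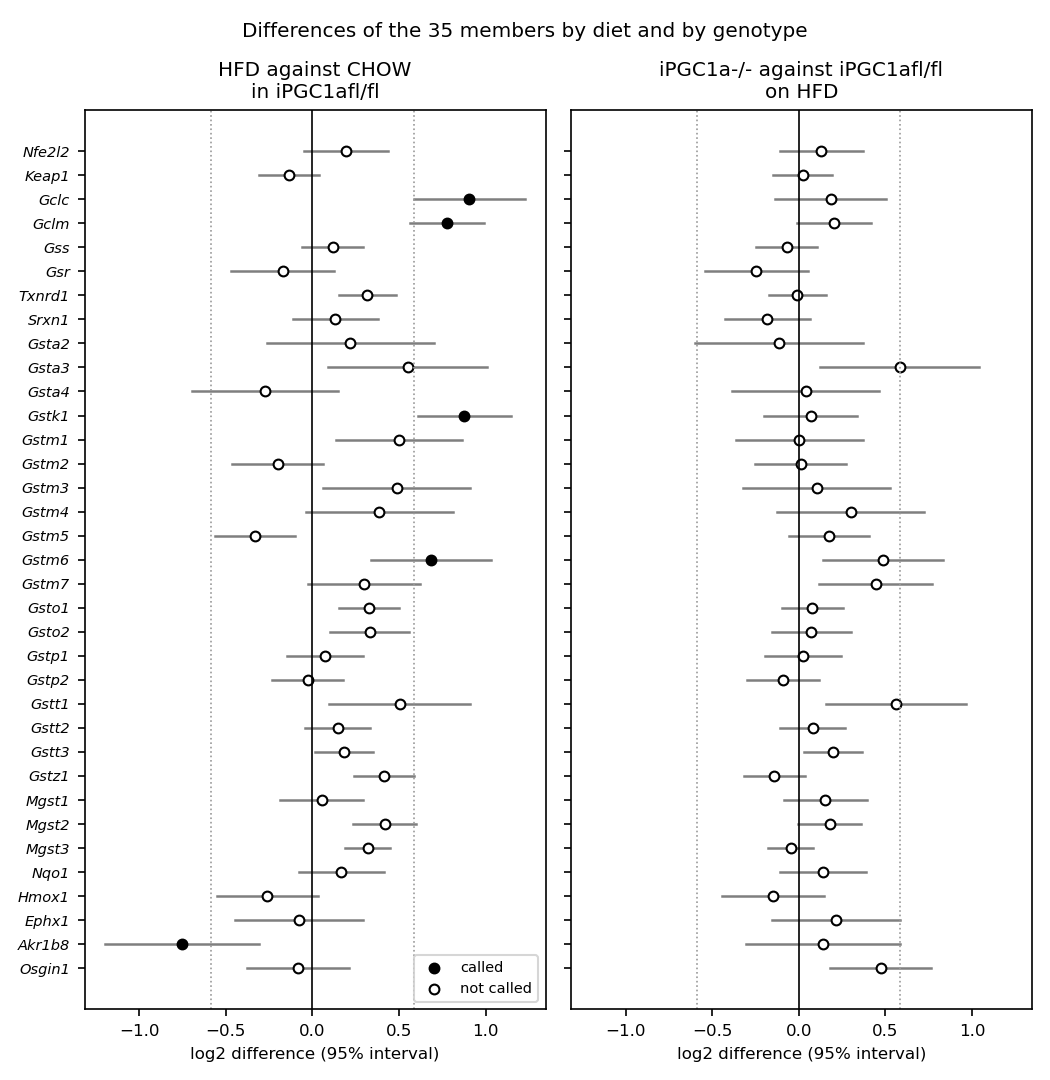
Log2 difference of each of the 35 members (rows) for diet (left panel) and for genotype on HFD (right panel), on an x axis of log2 difference, with lines for the 95% intervals from limma, dotted lines at the fold threshold and filled points for called genes. The diet panel shows Gclc, Gstk1, Gclm and Gstm6 called to the right and Akr1b8 to the left, and the genotype panel has no filled point.

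The second comparison asked what the lack of PGC1α altered on HFD, setting iPGC1a-/- HFD against iPGC1afl/fl HFD. No member passed: limma called 0 of 35, where 29 of 21542 genes (0.135%) were called, 0.0603% higher and 0.0743% lower. With the adjusted p alone the count was again 0 of 35, against 0.0650% of all genes higher and 0.162% lower. With an unadjusted p of at most 0.05 there were 6 members, all higher in iPGC1a-/-, where 9.30% of all genes had such a p in either direction. Their adjusted p-values were 0.281 to 0.467. In 0 of 35 members were the groups without overlap, where all genes gave 0.320% above and 0.645% below. The median difference of the 35 members was 0.08, that of all genes was 0.00589, and 26 members had a positive difference.

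Those 6 were Osgin1, Gstm6, Gstt1, Gstm7, Gsta3 and Gstt3. Osgin1 read 11.79, 12.26 and 12.38 in iPGC1afl/fl HFD and 12.16, 12.72 and 13.00 in iPGC1a-/- HFD, a difference of 0.47 (SE 0.14, 95% interval 0.18 to 0.77, limma adjusted p = 0.281). It was higher in iPGC1a-/- on each slide, by 0.21 to 0.82, with overlap between the groups. Gstt1 read 10.76, 10.93 and 11.33 (5 mice, 1 spot left out as an outlier) against 11.19, 11.61 and 11.998, a difference of 0.56 (adjusted p = 0.39). Gsta3 read 9.29, 9.73 and 10.27 against 9.38, 10.38 and 10.94 (0.58, adjusted p = 0.428). Both were higher on each slide, and neither was separated from the other genotype. Gstm6 differed by 0.49, Gstm7 by 0.44 and Gstt3 by 0.20.

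Of the 4 genes that rose on HFD, Gstm6 had a genotype interval of 0.14 to 0.83, which reached past the fold threshold of 0.585. For Gclc the interval of the genotype difference was -0.14 to 0.50, for Gclm -0.01 to 0.42 and for Gstk1 -0.20 to 0.34. These last 3 intervals end below that threshold. Nfe2l2 differed by 0.13 (95% interval -0.11 to 0.37), Keap1 by 0.02 (-0.15 to 0.19) and Nqo1 by 0.14 (-0.11 to 0.39).

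The third comparison set iPGC1a-/- HFD mice against iPGC1afl/fl CHOW mice, so it holds both differences at once and shares its arrays with the other comparisons. Limma called 11 of 35 members, 10 higher and 1 lower, where 4.94% of all genes were called higher, 6.86% lower and 11.8% in either direction. With the adjusted p alone 23 members passed, 20 higher and 3 lower, against 16.8% and 20.0% of all genes, and 24 had an unadjusted p of at most 0.05, against 46.8%. The groups did not overlap in 9 members with iPGC1a-/- HFD above and in 1 below, where all genes gave 7.54% and 8.64%. Of the 10, Gclc (1.09), Gclm (0.98), Gstk1 (0.95) and Gstm6 (1.17) were also called for diet. The other 6 were Gsta3, Gstt1, Gstm7, Gstm4, Mgst2 and Gstm3. Gstm1 was not called by its brightest probe (0.50, limma adjusted p = 0.031). Its probe on chromosome 3 did pass both thresholds (0.86, limma adjusted p = 0.0076). Akr1b8 fell by 0.61 on the log2 scale (adjusted p = 0.0309).

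For some of these the sum was made of 2 parts of like size. Gsta3, at 8.66, 9.22 and 9.48 on chow and 9.38, 10.38 and 10.94 in iPGC1a-/- HFD, was higher by 1.13 (limma adjusted p = 0.000607), of which 0.55 was the diet and 0.58 the genotype difference. Gstt1, at 9.66, 10.65 and 10.81 on chow, was higher by 1.07 (adjusted p = 0.000237), from 0.51 and 0.56. Gstm7, at 5.74, 6.21 and 6.42 on chow and 6.42, 6.94 and 7.45 in iPGC1a-/- HFD, was higher by 0.74 (adjusted p = 0.00111), from 0.30 and 0.44. In none of these 3 did either part pass by itself. Among the genes also called for diet, Gstm6 had a diet part of 0.69 and a genotype part of 0.49, and the genotype parts of Gclc, Gclm and Gstk1 were 0.18, 0.20 and 0.07.

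Several of these calls lay near the fold threshold. Gstm4 (0.69), Mgst2 (0.59) and Gstm3 (0.59) were each lost when single mice were left out: Gstm4 without iPGC1a-/- HFD replicate 2 (0.58) or 5 (0.57), Mgst2 without iPGC1a-/- HFD replicate 4 (0.54) or 5 (0.53) or chow replicate 1 (0.58), 3 (0.58) or 4 (0.57), and Gstm3 without iPGC1a-/- HFD replicate 2 (0.56), 4 (0.56) or 5 (0.43) or chow replicate 3 (0.56), 4 (0.56), 5 (0.58) or 6 (0.57). In iPGC1a-/- HFD, replicate 2 was among the highest 2 of its group for 6 of the 7 mu genes and replicate 5 for 5. Over all 35 members replicate 2 was the highest of its group for 9 and the lowest for 7. Replicate 5 was the highest for 12 and the lowest for 0. Akr1b8 was lost without chow replicate 3 (-0.46) or 4 (-0.54) and without iPGC1a-/- HFD replicate 6 (-0.51). It was also lost without iPGC1a-/- HFD replicate 3 (-0.60), where it stayed past the fold threshold and missed the adjusted p. Beyond the called genes, Osgin1 (0.39), Nfe2l2 (0.33) and Nqo1 (0.31) were higher, and Gsr (-0.42) and Hmox1 (-0.41) lower, with adjusted p-values of 0.0285 to 0.0497 and below the fold threshold. The second Nfe2l2 probe gave -0.14 (limma adjusted p = 0.71). In Gsr every iPGC1a-/- HFD array (12.90 to 13.40) was below every chow array (13.41 to 14.04).

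Around the members, 89 further genes of glutathione use and the NRF2 response were listed, and 84 passed the filter. On HFD in iPGC1afl/fl mice 24 of them were called, 18 higher and 6 lower, against 3.22% and 5.20% of all genes. Of these, glutathione turnover had 6 higher and 1 lower of 22. Ggt1, the surface enzyme that opens the breakdown of exported glutathione, rose from a range of 11.79 to 12.49 to one of 12.67 to 13.06 (difference 0.84, limma adjusted p = 1.25e-05), and Dpep1, the dipeptidase of the next step, rose by 0.76. Inside the cell Ggct (0.61) and Oplah (0.88), which act in turn on gamma-glutamyl products, rose too, and so did Slc3a2 (0.60), the heavy chain of several amino acid exchangers. Chac1, which degrades glutathione in the cytosol and is induced by the integrated stress response, fell by 2.06, from a range of 7.29 to 10.99 to one of 5.96 to 7.56 (adjusted p = 0.00606). The Ggct call was lost without iPGC1afl/fl HFD replicate 1 (0.54), 4 (0.54) or 5 (0.58), chow replicate 6 (0.56) or iPGC1a-/- HFD replicate 5 (0.58), and the Slc3a2 call without iPGC1afl/fl HFD replicate 2 (0.58) or 3 (0.575) or chow replicate 4 (0.51).

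Of the glutathione peroxidases 1 was called. Gpx4, which reduces phospholipid hydroperoxides, rose by 0.79 (limma adjusted p = 4.04e-06), from a range of 14.12 to 14.67 to one of 15.10 to 15.40. Gpx1 differed by -0.15, the gastrointestinal Gpx2 by -0.49 (adjusted p = 0.228, but called without iPGC1afl/fl HFD replicate 6, at -0.74) and Gpx3 by -0.27. In these 3 the diets overlapped. Gpx7, of the secretory pathway, was lower on HFD without overlap, by a difference of -0.40 (adjusted p = 0.00662) below the fold threshold.

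Other NRF2 targets had 8 higher and 2 lower of 27, against 3.22% and 5.20% of all genes, with a median difference of 0.30 against 0.00311 over all genes. Me1, malic enzyme and a source of cytosolic NADPH, rose from a range of 8.99 to 9.98 to one of 10.90 to 12.69 (1.94, limma adjusted p = 1.07e-05), Idh1, another NADPH source, by 1.18, Akr1c13 by 1.25, and Abcc2, the apical pump for glutathione conjugates, by 1.13. In each the 2 diets were apart. The 4 others that rose were Ugdh, Ptgr1, Cbr1 and Entpd5, by 0.91 to 1.02. Pir fell by 0.89. Cbr3 fell by 0.85 with an adjusted p of 0.0491, a call that remained in 3 of 13 other settings and in 5 of 18 fits without an array. Me1 and Abcc2 also belong to programmes of lipid and bile acid metabolism, so the list is not specific to NRF2.

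In the wider GST superfamily 2 of 10 rose and 2 fell, against 3.22% and 5.20% of all genes. Ltc4s, which joins glutathione to leukotriene A4, rose from a range of 9.03 to 9.58 to one of 10.52 to 11.01 (1.44, limma adjusted p = 1.81e-08) and Clic5 by 0.71 (0.57 and not called without chow replicate 3), while the chloride channel-like proteins Clic4 and Clic1, which share the GST fold, fell by 1.07 and 0.70. Among 7 xenobiotic receptors Ppara, the fatty acid receptor, was the one called (1.63, adjusted p = 7.81e-09). Of 7 further genes of NADPH supply Me3 rose by 0.70 and Mthfd2 fell by 0.98. Of 11 NRF2 partners and regulators 0 were called. Mafg, a small MAF partner, was 0.39 higher with an adjusted p of 0.00202, and Bach1, which competes at the same elements, differed by -0.07. Of the genes in these wider lists, Ggt1, Dpep1, Ggct, Slc3a2, the peroxidases, Ugdh, Ptgr1, Cbr1, Entpd5, Clic5, Mafg and Bach1 were named after their values were seen.

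**Figure D4:**
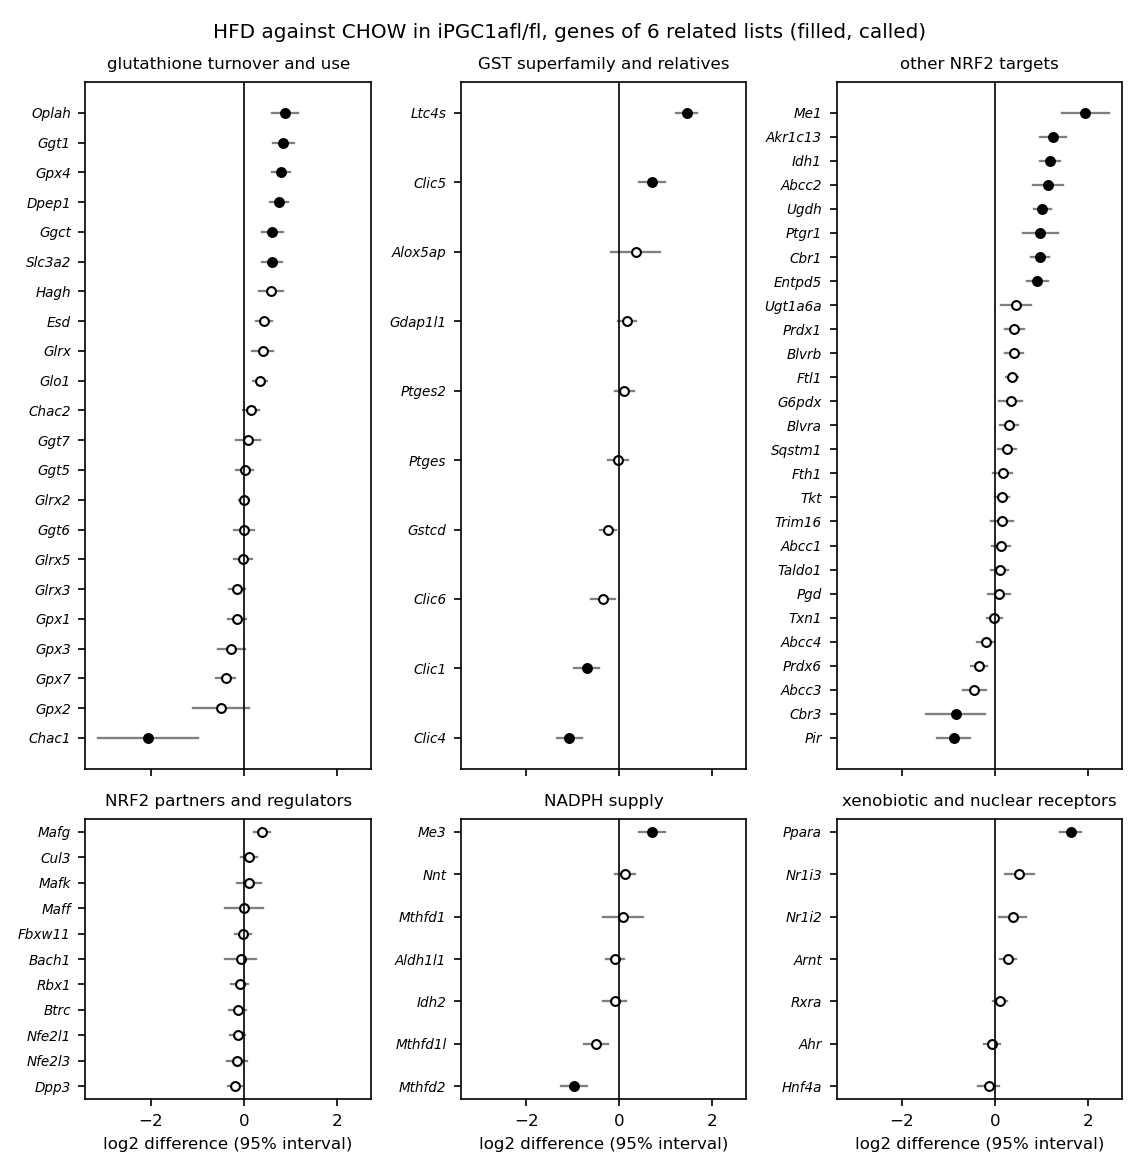
Log2 difference of HFD against CHOW in iPGC1afl/fl mice for the genes that passed in each of 6 wider lists (panels, 1 gene a row), as points on an axis of log2 difference with 95% intervals, filled for called genes. Called genes stand on both sides of 0 in 4 lists, the lowest is Chac1 and the highest Me1.

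By genotype on HFD, 3 of the 84 were called, 1 higher and 2 lower, where 0.0603% of all genes were called higher and 0.0743% lower. Nnt, the mitochondrial transhydrogenase that supplies NADPH for glutathione reduction, read 9.68 to 10.26 in iPGC1afl/fl HFD and 11.32 to 11.60 in iPGC1a-/- HFD (1.48, SE 0.10, limma adjusted p = 1.54e-07). A second probe was called too (0.61) and the other was not (0.06), and C57BL/6J mice are known to carry a deletion within Nnt, whose state in these mice was not tested. Oplah read 9.90 to 10.09 in iPGC1afl/fl HFD and 8.98 to 9.59 in iPGC1a-/- HFD (-0.69, adjusted p = 0.0313), which overlaps its chow range of 8.50 to 9.45. Me3, mitochondrial malic enzyme, read 8.04 to 8.54 and 7.33 to 8.21 (-0.70, adjusted p = 0.0237). Oplah and Me3 were also called higher for diet. Both comparisons use the same iPGC1afl/fl HFD arrays, so the diet and genotype differences of these genes are not independent. The calls of Oplah and Me3 each remained in 8 of 18 fits without an array, and in the others, each without 1 HFD array, the differences were -0.71 to -0.64 and the adjusted p-values reached 0.0884 for Oplah and 0.0867 for Me3.

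Markers of other cell types moved with diet as well. Their part in the differences above was not tested. The counts of called markers stand against 3.22% of all genes called higher and 5.20% called lower on HFD. The sums given here add linear signals, so the brightest genes of a list weigh most in them. Given as the log2 of the summed signal of each list, T-cell markers lay at 13.57 to 15.45 in iPGC1afl/fl CHOW, 12.22 to 13.14 in iPGC1afl/fl HFD and 12.67 to 13.43 in iPGC1a-/- HFD, with 5 of 5 kept markers called lower on HFD. B-cell markers lay at 9.25 to 11.77, 7.74 to 10.19 and 8.45 to 9.69 (4 of 5 lower), and goblet-cell markers at 18.71 to 19.11, 17.50 to 18.81 and 18.11 to 18.65 (5 of 6 lower). Proximal enterocyte markers lay at 15.33 to 17.24, 17.54 to 17.84 and 17.60 to 18.26, with Lct (1.05) and Fabp1 (0.88) called higher of 5. Chow replicate 4, the lowest of them at 15.33, also had the lowest chow value of Gstt1, Gstm6 and Gstm7. Over all 35 members it was the lowest chow array for 10 and the highest for 9. Villus-bottom markers lay at 18.33 to 18.87, 16.37 to 17.27 and 16.42 to 17.73 (3 of 5 lower). The other 2 villus-bottom genes had positive diet differences, the larger 1.27, and were not called. Villus-tip markers lay at 16.77 to 17.66, 17.57 to 17.91 and 17.75 to 18.13, where Apoa4 was called higher and 3 others lower. Of the 6 villus-tip genes 1 had a positive and 5 a negative diet difference, with a median of -0.54. Their sum thus moved against most of its genes. The remaining lists gave 2 of 4 plasma-cell markers, 2 of 4 ileal enterocyte markers, and 1 marker each of crypt, Paneth, enteroendocrine, tuft and stromal cells called lower, Alpi of 6 enterocyte markers called higher, and 0 of the macrophage markers called. In those lists with 1 marker called lower, directions were mixed. Diet differences were positive in 4 of 5 Paneth, 2 of 3 tuft, 3 of 5 stromal, 2 of 6 crypt and 2 of 5 enteroendocrine markers. By genotype on HFD 0 markers of any list were called, where 0.135% of all genes were called. The markers Trac, Tnfrsf17, Adgre1, C1qa, Col1a1, Pou2f3 and Cyp8b1 did not pass the filter.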

How the data were processed

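RNA of ileal epithelial cells from 18 mice was labelled with Cy3 and hybridised to 1-colour Agilent mouse arrays, and the deposited scanner files (Agilent Feature Extraction 10.10.1.1, per the file headers, probe positions in mm9) hold intensity values per spot. The authors also deposited log2 values, used here as an alternative. Per the study's methods, the authors applied qsmooth and corrected for washing bath and labelling serial, which the labels do not give, so that correction was not repeated. Here control spots and outlier spots were left out, log2 median intensity was normalized by smooth quantile normalization (qsmooth, own code, window 0.05), and a probe was kept where it stood well above background on 5 or more of the 6 arrays of some group (32726 of 56605 probes). One limma model of 3 groups (R 4.3.3, limma 3.58.1) was fitted and p-values were adjusted by Benjamini-Hochberg over all probes kept. The brightest probe stood for its gene. Called means an adjusted p of at most 0.05 and a fold change above 1.5. The script was tested on simulated data.

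Members and lists were chosen with earlier results of these data known. All members are named. From the wider lists, called genes are named, at most 6 by size per direction and comparison, with Nnt and Ppargc1a, and others are named as chosen after their values were seen. Ppargc1a directions by genotype have no array check. Nothing in the labels says whether mice shared a litter or cage, and the number of arrays limits the precision. Alternatives were other normalizations, signals and background correction, probe rules, filters, slide or replicate number as a block, array weights, the 2 groups alone, and each array left out. Protein sequences were not used here.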

Additional observations from a re-analysis of the deposited data

Results flagged for a closer look

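In 11 of 105 groups of member values 1 array lay far from the other 5, by Dixon's ratio at its 95% critical value for the number of arrays. Chance flags about 1 in 20 groups. In iPGC1afl/fl CHOW, replicate 4 was lowest for Gstt1 (9.66, others 10.61 to 10.81) and for Gstm7 (5.74, others 6.18 to 6.42), and it was also the array lowest in proximal enterocyte markers. Over all 35 members it was the lowest of its group for 10 and the highest for 9. Replicate 6 was lowest for Gstt2 (9.63, others 9.90 to 10.04) and replicate 2 highest for Srxn1 (14.37, others 13.74 to 13.93).

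In iPGC1afl/fl HFD, replicate 6 was highest for Gss (13.63, others 13.27 to 13.36). Replicate 1 was lowest for Gstp1 (11.45, others 11.68 to 11.75) and for Mgst3 (13.71, others 13.89 to 13.96), and replicate 3 for Gsto2 (5.20, others 5.48 to 5.63). In iPGC1a-/- HFD, replicate 6 was lowest for Gss (13.01, others 13.28 to 13.39) and for Gsta4 (7.48, others 7.93 to 8.06), and replicate 2 was highest for Gstm2 (10.12, others 9.45 to 9.64).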

How the results depend on the processing

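The diet calls of Gclc, Gclm, Gstk1 and Akr1b8 held in each of 13 alternatives, the authors' log2 values among them, and in each of 18 fits without an array, and no member changed direction where it was called. For diet, 5 members were called in the report, 9 (8 higher) with the 75th percentile scaling of background-subtracted signal, and 13 with no fold threshold. That scaling gave a median diet difference of 0.0523 over all genes. With no fold threshold 10.4% of all genes were higher and 14.2% lower. Shares of all genes were not computed for other scalings or left-out arrays, so those counts show only how the calls depend on processing. Leaving out each array gave 4 to 7 members for diet, 0 to 0 for genotype on HFD, 8 to 12 for both combined and 22 to 26 of the wider genes. With no fold threshold the combined comparison gave 23 members, against 16.8% of all genes higher and 20.0% lower. The wider genes gave 41 for diet. With the 75th percentile scaling of background-subtracted signal the combined comparison gave 13 members, 12 higher and 1 lower, and the 1 lower was not Akr1b8. The Akr1b8 call in the combined comparison was lost with background-subtracted signal (-0.51), with median signal scaled to the 75th percentile (-0.53) and with array weights (-0.40), and that of Gstm7 with normexp correction (0.57). Of the wider genes named as called for diet, Cbr3, Ggct, Slc3a2, Clic5, Clic1 and Me3 lost the call under some setting: Clic1 with background-subtracted signal (-0.58), and Clic5 (0.39), Me3 (0.37) and Slc3a2 (0.55) with the mean of a gene's probes. Gpx7 was called with background-subtracted signal (-1.72). No scaling moved the median of all genes by more than 0.0768 (log2).

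Same-numbered arrays of different groups correlated at -0.217 to 0.346 in their deviations from the group means. For some numbers, replicate 1 in every pair of groups among them, the same-numbered array was the closest match. The labels give no pairing of mice by number, and none was used in the main model, but the correlations do not exclude one. With the replicate number as a block there were 5 members for diet, 0 for genotype, 11 for both combined and 23 wider genes, and Oplah lost its genotype call (adjusted p = 0.0656). Hmox1 and Gsto2 have little signal over background.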
